A study of Homo sapiens with 4 samples.

Results

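The genes described here encode splicing factors of 3 families: the serine and arginine rich SRSF proteins, the heterogeneous nuclear ribonucleoproteins (HNRNP) and the small nuclear ribonucleoprotein polypeptides (SNRP). They were taken by name, as protein-coding rows of the deposited count table whose symbol begins with SRSF and a digit, HNRNP or SNRP. Of 58735 genes in the table, 51 met this rule, 12 SRSF, 27 HNRNP and 12 SNRP genes. A further 180 rows with matching names had other biotypes, mostly processed copies, and are not members. RNA was sequenced from the human breast cancer line MDA-MB-231, which is triple-negative and long established, transduced with a doxycycline-inducible (TetOn) histone H2B-eGFP reporter. All cells received doxycycline at 5 μg/ml for 3 days, took up the dyes Claret and Violet, and were chased for 12 days, during which division dilutes a label. The 1% of cells that retained most Claret, most eGFP or most Violet formed the slow-cycling groups, and Bulk was sorted without a fluorescence gate. Each of the 4 groups holds 1 library, so no difference below has a replicate check, and the tests compare libraries, not conditions.

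Libraries are named here by their titles. In each of the 4 samples the treatment field of the labels names another sort: the library titled Bulk is given there as Claret, Claret as eGFP, eGFP as Violet, and Violet as un-gated. The columns of the deposited tables carry the names of the titles, and the summed level of the 8 proliferation markers listed was highest in the library titled Bulk. Every direction below rests on the titles. With the treatment field, the family medians in the library then called Claret become positive, at 0.55 for SRSF, 0.51 for HNRNP and 1.04 for SNRP on the log2 scale.

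Introns are removed by the spliceosome, which is built from small nuclear RNAs and proteins. The SNRP genes encode the ring of Sm proteins that sits on most spliceosomal RNAs, and a few proteins particular to the U1 and U2 particles. SRSF proteins bind exons through RNA recognition motifs and recruit the spliceosome through a domain rich in arginine and serine. HNRNP proteins coat nascent RNA and often favour skipping of the sites they cover, and many also act in export, stability or translation. Genes of both regulator families are known to carry exons that send the transcript to decay, which counts per gene cannot resolve.

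The libraries held 15508179 to 16976909 counted reads. Markers of the mesenchymal-like type of breast cancer line were high (VIM had 12507 to 18488 reads). Of the luminal markers, PGR was at 0 and ESR1 had 3 to 7 reads, while GATA3 had 74 to 95, FOXA1 235 to 271 and ERBB2 1415 to 1542. Of the epithelial markers, CDH1 had 0 to 3 reads and EPCAM 28 to 61, while KRT18 had 2690 to 3287 and KRT8 5924 to 6904. Leukocyte markers summed to 0.0635 to 0.127 CPM (counts scaled to library size), with CD3E at 0. Of the fibroblast markers, COL1A2 and LUM were at 0, DCN had 2 reads in Claret and 0 elsewhere, and COL1A1 had 284 to 363. Of the endothelial markers, PECAM1 had 54 to 87 reads, CDH5 0 to 2, and VWF 4 in Bulk against 19, 21 and 24 over Claret, eGFP and Violet. The fibroblast list summed to 18.0 CPM in Bulk and to 21.1 to 22.8 in the others, and the endothelial list to 3.998 and to 4.72 to 7.18. Their part in the differences below was not tested. All 8 proliferation markers listed were called at least 2-fold below Bulk in Claret, eGFP and Violet alike, and their summed level was 2450 CPM for Bulk, 501 for Claret, 396 for eGFP and 501 for Violet. Most splicing factor genes were, like these markers, lower in Claret, eGFP and Violet than in Bulk. The marker sum was lowest in eGFP, as were the summed SRSF and HNRNP levels, while the summed SNRP level was lowest in Violet. The part of cell cycling in the differences below was not tested. In sorted pools, fewer cells expressing a gene and less RNA per cell cannot be told apart.

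Of the 51 genes, 44 had a mean of at least 1 CPM over the 4 libraries and were compared: 11 SRSF, 22 HNRNP and 11 SNRP genes. Splicing factor genes were mostly lower in the slow-cycling libraries than in Bulk, and no member was called higher. A gene was called where an exact binomial test on the reads of 2 libraries gave a Benjamini-Hochberg adjusted p under 0.05 over 14585 genes and the ratio was at least 2-fold. Claret had 13 members called lower, where 6.71% of all genes tested were. For eGFP it was 14 members, against 7.61% of all genes, and for Violet 17 members, against 6.91%. None was called higher, although 11.2% of all genes were for Claret, 11.9% for eGFP and 11.5% for Violet. Across the 3 slow-cycling libraries, 13 of 44 members (29.5%) were called lower in every one, where 4.93% of all genes were. With the threshold set at 1.5-fold it was 22 of 44 (50%), where 12.7% of all genes were. Called higher in all 3 were 8.41% of all genes at 2-fold and 15.3% at 1.5-fold, but no member. Library by library, 23, 24 and 22 members were lower by at least 1.5-fold over Claret, eGFP and Violet, where 16.6%, 17.8% and 16.6% of all genes were, and none was higher, where 19.6%, 20.3% and 20.5% were. By the adjusted p alone, 37, 40 and 39 members were lower, where 35.3%, 35.9% and 34.9% of all genes were, and 2, 3 and 3 were higher, where 33.1%, 33.6% and 34% were. Without a threshold on size the test passes smaller differences for genes with more reads, and these shares were not matched for read number. Ratios below 0 on the log2 scale in all 3 libraries were found for 40 of 44 members and for 42.8% of all genes. The 3 comparisons share the Bulk library, so they are not independent of each other.

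The families differed in how uniformly they were lower. SNRP genes had the lowest median log2 ratio to Bulk, -0.89 for Claret, -0.97 for eGFP and -1.04 for Violet, and all 11 lay below 0 in all 3 libraries. The SRSF median was -0.63, -0.60 and -0.55 in the same order, with 8 of 11 genes below 0 in all 3 and the other 3 above it. The HNRNP median was -0.47, -0.58 and -0.51, with 21 of 22 genes below 0 in all 3. Over all genes tested the median was -0.01, -0.01 and 0.01. Called lower by at least 2-fold in all 3 were 3 of 11 SRSF (27.3%), 6 of 22 HNRNP (27.3%) and 4 of 11 SNRP genes (36.4%). At 1.5-fold the families lay further apart, with 5 of 11 SRSF (45.5%), 9 of 22 HNRNP (40.9%) and 8 of 11 SNRP genes (72.7%). These are descriptions of lists of 11 to 22 genes, and the difference between families was not tested.

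**Figure D1:**
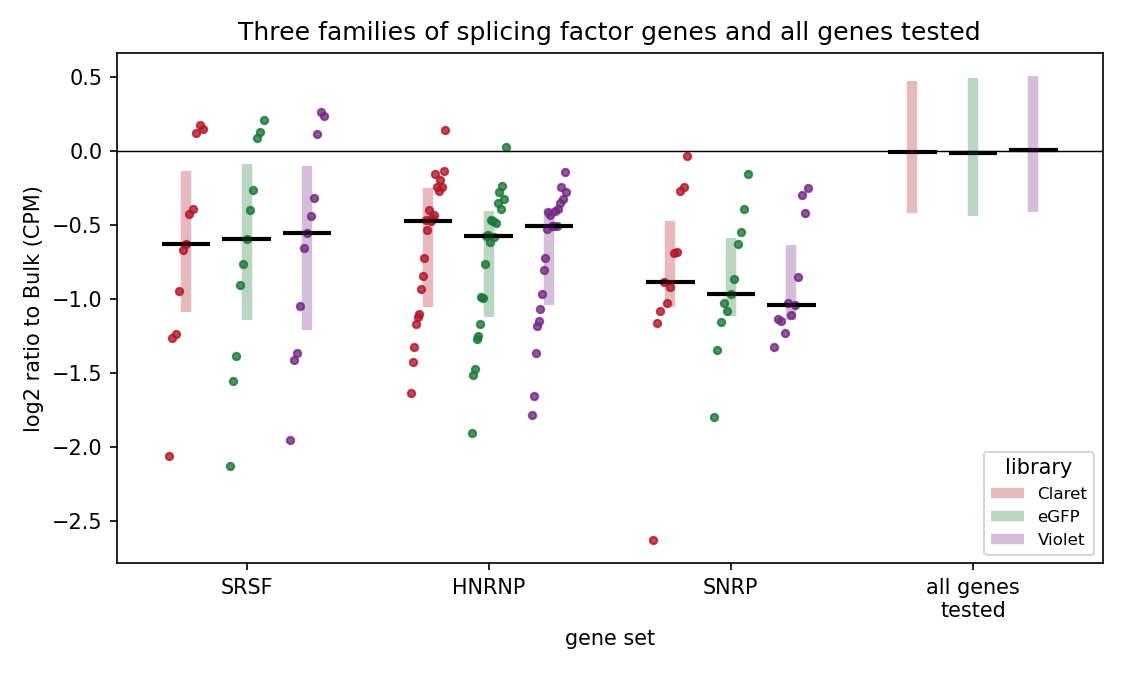
Log2 ratio to Bulk (vertical axis, from CPM) of each member past the filter, by family and slow-cycling library; points are genes, black lines medians and shaded bars the quartiles, with the median and quartiles of all 14585 genes tested on the right. SNRP medians lie between -0.89 and -1.04, below those of SRSF and HNRNP, while the medians of all genes lie between -0.012 and 0.006.

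Summed over the family, SNRP genes gave 1128 CPM in Bulk against 665, 623 and 615 CPM over Claret, eGFP and Violet. This is a log2 ratio of -0.76 (95% interval -0.80 to -0.73), -0.86 (-0.89 to -0.82) and -0.88 (-0.91 to -0.84). SRSF genes summed to 2150 CPM in Bulk and to 1402, 1363 and 1406 CPM, with log2 ratios of -0.62, -0.66 and -0.61. HNRNP genes summed to 10160.5 CPM in Bulk and to 6311, 5947 and 6143 CPM, with log2 ratios of -0.69, -0.77 and -0.73. By sums the 3 families were closer to each other than by medians. Without HNRNPA1 the HNRNP ratios were -0.77, -0.85 and -0.79, and without SRSF3 the SRSF ratios were -0.49, -0.50 and -0.47.

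Of the 7 Sm ring genes, 6 were lower by at least 1.5-fold in each slow-cycling library and 1, SNRPD2, in none. The ring is a heptamer of the products of SNRPB, SNRPD1, SNRPD2, SNRPD3, SNRPE, SNRPF and SNRPG around the small nuclear RNA. The median log2 ratio of its genes was -1.03, -1.08 and -1.14 over Claret, eGFP and Violet.

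SNRPG (ENSG00000143977, chromosome 2, 70281362 to 70293771, GRCh38) had 1480 reads for Bulk, 256 for Claret, 428 for eGFP and 589 for Violet. All slow-cycling libraries were low, and they were also unequal among themselves. The log2 ratio to Bulk was -2.63 (95% interval -2.84 to -2.45) for Claret, -1.80 (-1.96 to -1.65) for eGFP and -1.33 (-1.47 to -1.19) for Violet.

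SNRPD1 (ENSG00000167088, chromosome 18, 21612267 to 21633524) had 1436 reads in Bulk against 689, 568 and 652 over Claret, eGFP and Violet, with log2 ratios of -1.16, -1.35 and -1.14. SNRPF (ENSG00000139343, chromosome 12, 95858928 to 95903828) had 1769 reads in Bulk against 901, 800 and 797, with log2 ratios of -1.08, -1.16 and -1.15. For both genes each slow-cycling library lay at about the same low level. SNRPD3 had log2 ratios of -1.03, -1.08 and -1.02, which lie at the 2-fold threshold, and 24.6% of its exonic bases also belong to other genes. SNRPE stood at -0.92, -0.97 and -1.11, so that it was called in Violet and missed the threshold in Claret and eGFP.

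SNRPB, whose product takes part in the ring as SmB or SmB', had the highest level per length of the family, at 156 FPKM, the deposited measure scaled for length and depth, in Bulk. Its reads were 3108 for Bulk, 1810 for Claret, 1537 for eGFP and 1326 for Violet, with log2 ratios of -0.89 (-0.97 to -0.80), -1.03 (-1.12 to -0.94) and -1.23 (-1.32 to -1.13). Violet was thus lowest for SNRPB, the reverse of the order seen for SNRPG. SNRPD2 stood apart from the rest of the ring, with 1930 reads for Bulk, 2028 for Claret, 1752 for eGFP and 1625 for Violet. Its log2 ratios were -0.04 (-0.13 to 0.05), -0.15 (-0.25 to -0.06) and -0.25 (-0.34 to -0.15). SNRPD1 and SNRPD2, which pair in the ring, therefore had an FPKM ratio of 0.244 in Bulk and of 0.111, 0.106 and 0.131 over Claret, eGFP and Violet. For SNRPB and SNRPD3, the other pair of this kind, the FPKM ratio was 3.90 in Bulk and 4.30, 4.04 and 3.39. The length behind FPKM is all annotated exonic bases of a gene, 4909 for SNRPD1 and 1608 for SNRPD2. FPKM ratios between genes depend on that annotation, while their change between libraries does not.

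The 4 SNRP genes outside the ring had log2 ratios from -0.25 to -1.04. SNRPC, the U1 protein that helps recognise the 5′ splice site, had 1637 reads for Bulk, 1094 for Claret, 907 for eGFP and 795 for Violet, with log2 ratios of -0.69 (-0.80 to -0.58), -0.86 (-0.98 to -0.75) and -1.04 (-1.16 to -0.92). SNRPA, which binds a stem loop of U1 RNA, stood at -0.27, -0.55 and -0.30. Its close relative in the U2 particle, SNRPB2, stood at -0.25, -0.39 and -0.42, and SNRPA1, its U2 partner, at -0.68, -0.63 and -0.85. Of these 4 genes, SNRPC in Violet was the single one called at 2-fold.

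**Figure D2:**
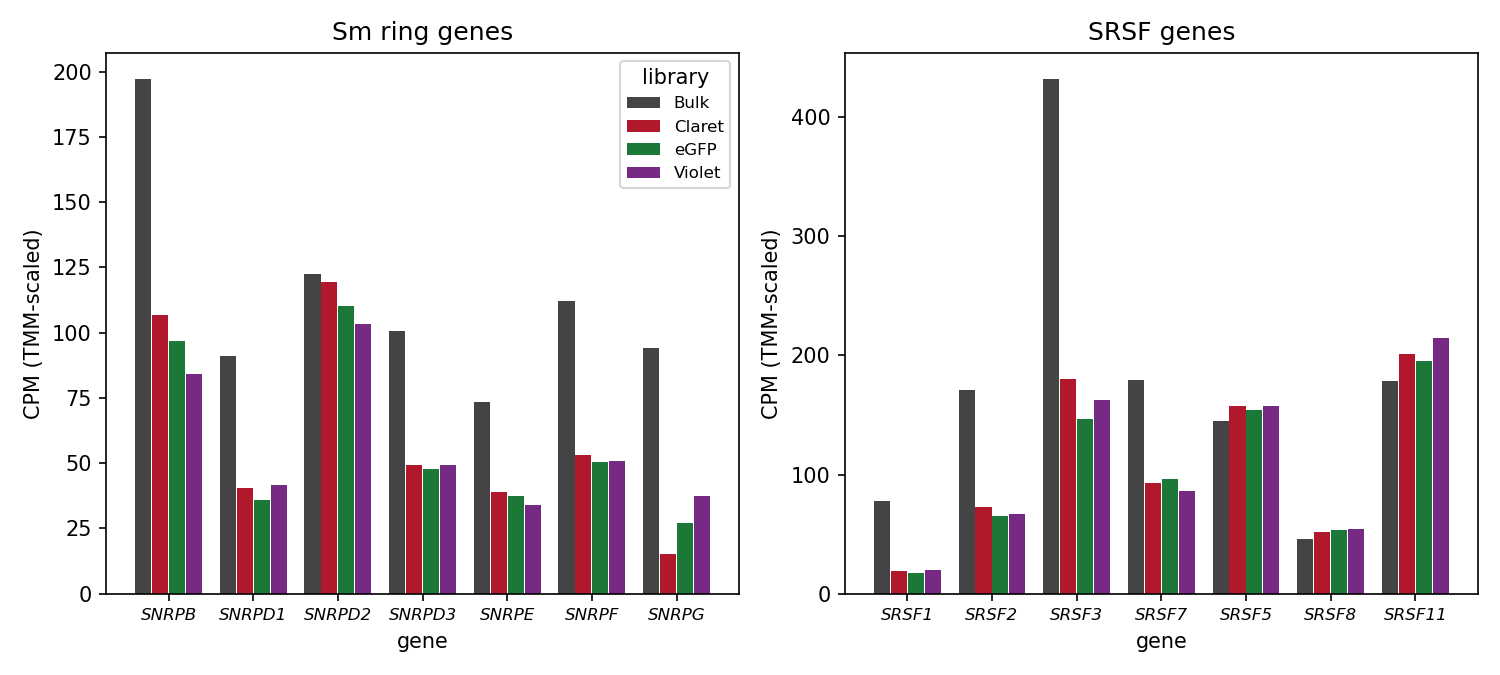
CPM (vertical axes, scaled by TMM) in each of the 4 libraries for the 7 Sm ring genes (left) and for 7 SRSF genes (right); each bar is 1 library and there are no error bars because no group has replicates. Bulk is the tallest bar for every Sm ring gene, while SRSF5, SRSF8 and SRSF11 are slightly taller in the slow-cycling libraries.

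The SRSF genes ranged from 4 called lower by 2-fold in at least 1 library to 3 that lay above Bulk. SRSF1 (ENSG00000136450, chromosome 17, 58003360 to 58007346), which encodes the founding member of the family, had 1227 reads for Bulk, 316 for Claret, 281 for eGFP and 315 for Violet. The 3 slow-cycling libraries were close together and all far below Bulk, with log2 ratios of -2.06 (-2.25 to -1.89), -2.13 (-2.33 to -1.95) and -1.95 (-2.14 to -1.78). Other genes annotated at the locus cover 60.7% of the exonic bases of SRSF1, and its level per length is uncertain for that reason.

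SRSF3 (ENSG00000112081, chromosome 6, 36594353 to 36605600), the smallest SR protein, which also acts in mRNA export, had 6815 reads in Bulk against 3060, 2336 and 2562 over Claret, eGFP and Violet. Its log2 ratios were -1.26 (-1.33 to -1.20), -1.56 (-1.63 to -1.49) and -1.41 (-1.48 to -1.34). SRSF2 (ENSG00000161547, chromosome 17, 76734115 to 76737374), known as a marker of nuclear speckles, had 2701 reads in Bulk against 1233, 1042 and 1048. Its log2 ratios were -1.24, -1.39 and -1.36, and the opposite-strand gene MFSD11 overlaps much of the 36.7% of its exonic bases that are shared. SRSF7, which like SRSF3 links splicing to export, had 2827 reads in Bulk against 1582, 1525 and 1363, with log2 ratios of -0.94, -0.90 and -1.05. It was called in Violet and lay just short of 2-fold in the other libraries.

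A middle group was lower by less than 2-fold. The log2 ratios in Claret, eGFP and Violet were -0.67, -0.76 and -0.65 for SRSF6 and -0.63, -0.60 and -0.55 for SRSF10, a regulator that represses splicing when dephosphorylated. For SRSF4 they were -0.39, -0.27 and -0.32. SRSF9 had the highest mean level of the family per length, with 57.2 FPKM in Bulk and 42.0, 42.7 and 40.9 FPKM in Claret, eGFP and Violet. Its reads were 3330 in Bulk and 2670, 2553 and 2460, with log2 ratios of -0.43, -0.40 and -0.44. The opposite-strand gene GATC overlaps 46.2% of its exonic bases.

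SRSF5, SRSF8 and SRSF11 lay slightly above Bulk in all 3 libraries. SRSF11, an arginine and serine rich protein of the family with few described targets, had 2812 reads for Bulk, 3423 for Claret, 3103 for eGFP and 3376 for Violet, with log2 ratios of 0.18 (0.10 to 0.25), 0.13 (0.06 to 0.20) and 0.26 (0.19 to 0.34). SRSF8, which arose as a processed copy of SRSF2, had 729 reads in Bulk against 873, 852 and 857, with log2 ratios of 0.15 (0.01 to 0.30), 0.21 (0.07 to 0.36) and 0.23 (0.09 to 0.38). SRSF5 had 2287 reads in Bulk against 2680, 2456 and 2479, with log2 ratios of 0.12, 0.09 and 0.12. Their adjusted p by the exact binomial test was under 0.05 in each library except for SRSF8 in Claret (0.0546), but none reached 1.5-fold. The 3 genes kept this direction under every scaling tried, with the lowest value, 0.06, for SRSF5 in eGFP. The FPKM ratio of SRSF2 to its copy SRSF8 was 4.95 in Bulk and 1.89, 1.63 and 1.63 over Claret, eGFP and Violet.

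Within the HNRNP family, 6 genes were lower by at least 2-fold in all 3 libraries. HNRNPM (ENSG00000099783, chromosome 19, 8444767 to 8489114), a repressor and enhancer of alternative exons with a known role in mesenchymal splicing in breast cancer cells, had 8805 reads for Bulk, 3059 for Claret, 2366 for eGFP and 2548 for Violet. Its log2 ratios were -1.63 (-1.69 to -1.57), -1.91 (-1.97 to -1.84) and -1.79 (-1.85 to -1.72). HNRNPAB (ENSG00000197451, chromosome 5, 178204507 to 178211163), which binds RNA and also DNA, had 6787 reads in Bulk against 2718, 2402 and 2150, with log2 ratios of -1.43, -1.51 and -1.66. Both genes had every slow-cycling library far below Bulk, and HNRNPM was lowest in eGFP while HNRNPAB was lowest in Violet.

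HNRNPA2B1 (ENSG00000122566, chromosome 7, 26173057 to 26201529), one of the core proteins of the hnRNP particle, had 20840 reads in Bulk against 8974, 7559 and 8073. Its log2 ratios were -1.32 (-1.36 to -1.29), -1.48 (-1.51 to -1.44) and -1.37 (-1.40 to -1.33). HNRNPR (ENSG00000125944, chromosome 1, 23303771 to 23344336) had 4150 reads in Bulk against 1992, 1736 and 1830, with log2 ratios of -1.17, -1.27 and -1.18. HNRNPL, which binds CA repeats, stood at -1.12, -1.25 and -1.15, and HNRNPA3 at -1.10, -1.17 and -1.07. HNRNPD, known as AUF1 for its binding to AU-rich elements that mark mRNA for decay, was just short of the threshold at -0.93, -0.99 and -0.97. HNRNPU, a nuclear scaffold protein, stood at -0.84, -0.99 and -0.81, and HNRNPUL1 at -0.72, -0.76 and -0.72.

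HNRNPA1 (ENSG00000135486, chromosome 12, 54280193 to 54287088), the best studied member and an antagonist of SRSF1 in the choice of splice sites, had the highest level per length of all members, 277 FPKM in Bulk and 231, 213 and 204 over Claret, eGFP and Violet. Its reads were 21922 for Bulk, 19941 for Claret, 17337 for eGFP and 16716 for Violet. The log2 ratios were -0.24 (-0.27 to -0.22), -0.35 (-0.38 to -0.32) and -0.39 (-0.42 to -0.36), a smaller difference than for HNRNPA2B1 in each library. The FPKM ratio of HNRNPA2B1 to HNRNPA1 was 0.522 in Bulk and 0.247, 0.240 and 0.265. HNRNPA1 made up 16.5% of the summed FPKM of the family in Bulk against 22.3%, 22.0% and 21.0% over Claret, eGFP and Violet.

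Most of the remaining HNRNP genes were lower by less than 1.5-fold. The G-run binding proteins HNRNPF, HNRNPH1, HNRNPH2 and HNRNPH3 had a median of -0.47, -0.52 and -0.46, and none of these 4 genes passed 1.5-fold. HNRNPH1 stood at -0.53, -0.57 and -0.41, HNRNPH3 at -0.47, -0.57 and -0.53, HNRNPF at -0.47, -0.47 and -0.51, and HNRNPH2 at -0.19, -0.39 and -0.24. HNRNPK, which binds C-rich RNA and DNA, stood at -0.43, -0.58 and -0.41. HNRNPC, which binds uridine tracts, stood at -0.27, -0.28 and -0.35. HNRNPDL was at -0.45, -0.48 and -0.51, HNRNPA0 at -0.24, -0.23 and -0.32, and HNRNPUL2 at -0.40, -0.62 and -0.43. HNRNPUL2 in eGFP was the one value of these past 1.5-fold. The same-strand gene HNRNPUL2-BSCL2 covers 44.15% of the exonic bases of HNRNPUL2, and its counts are uncertain for that reason. HNRNPLL, a relative of HNRNPL known from lymphocytes, stood at -0.13, -0.33 and -0.14, so that the FPKM ratio of HNRNPL to HNRNPLL was 4.67 in Bulk and 2.35, 2.46 and 2.32.

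Both HNRNPA1-like genes share most of their sequence with other genes, 76.4% of the 31-base words of HNRNPA1L2 and 58.5% of those of HNRNPA1P48, and their counts are uncertain for that reason. HNRNPA1L2 had 67, 80, 69 and 55 reads in Bulk, Claret, eGFP and Violet, with log2 ratios of 0.14 (-0.34 to 0.64), 0.03 (-0.48 to 0.54) and -0.27 (-0.83 to 0.25). No difference was detectable for it at this depth. HNRNPA1P48 had 252, 244, 181 and 177 reads, with log2 ratios of -0.15 (-0.41 to 0.11), -0.49 (-0.77 to -0.21) and -0.50 (-0.79 to -0.23).

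**Figure D3:**
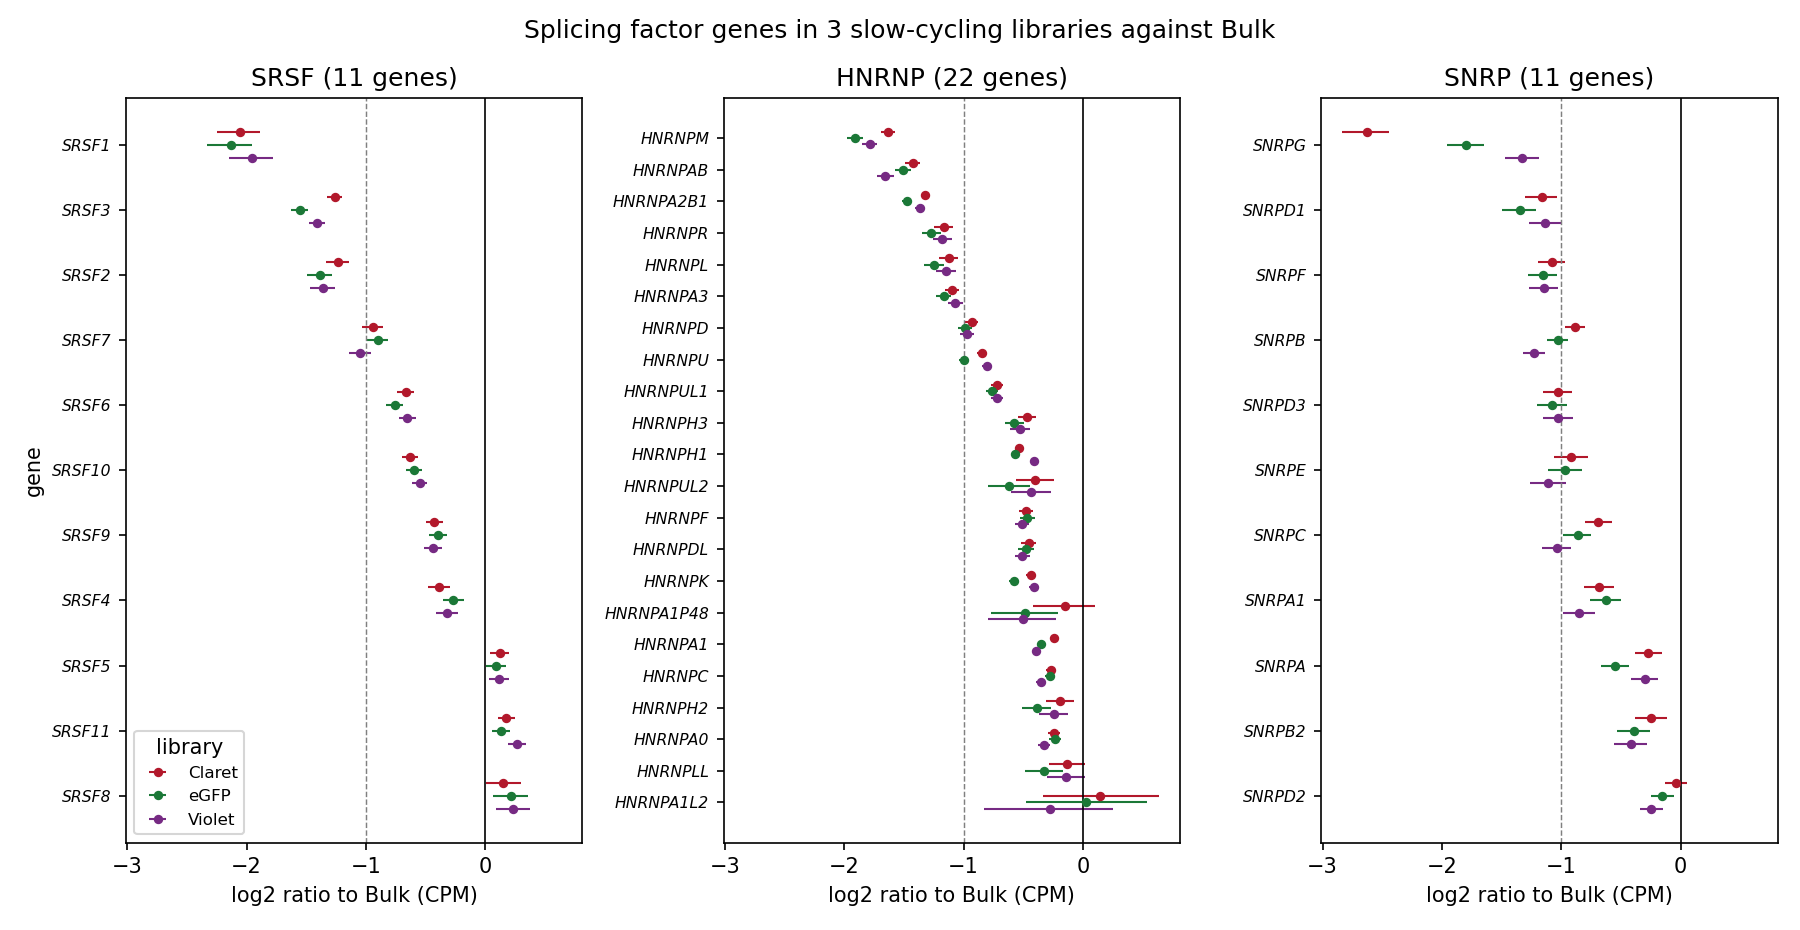
Log2 ratio to Bulk (horizontal axes, from CPM) of each of the 44 members in Claret, eGFP and Violet, by family and ordered by the mean of the 3; bars are exact 95% intervals, which cover counting error only, and the dashed line marks 2-fold lower. The 3 libraries lie close together for most genes, SNRPG is spread from -2.63 to -1.33, and SRSF5, SRSF8 and SRSF11 lie above 0.

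Because the differences were unequal, the order of levels within the families differed between Bulk and the slow-cycling libraries. SRSF3 was first of the SRSF genes in Bulk with 61.6 FPKM, ahead of SRSF2 (57.6), SRSF9 (57.2) and SRSF6 (57.1). In Claret SRSF9 was first (42.0), then SRSF6 (35.5) and SRSF5 (29.5), with SRSF3 at 25.3. SRSF1 went from 23.6 FPKM in Bulk to 5.57, 5.26 and 5.87, the lowest FPKM of the 11 genes in each slow-cycling library. Other genes cover 60.7% of the exonic bases of SRSF1, 46.2% of those of SRSF9 and 36.7% of those of SRSF2. Reads in shared stretches may not be counted, so the ranks of these genes by FPKM are uncertain. Among HNRNP genes, HNRNPAB was next to HNRNPA1 in Bulk at 204 FPKM and stood at 74.7, 70.1 and 62.5 FPKM in Claret, eGFP and Violet, below HNRNPK (97.7, 87.7 and 97.5). Among SNRP genes, SNRPB was first in Bulk at 156 FPKM, followed by SNRPC (82.5) and SNRPD2 (77.2). In the slow-cycling libraries SNRPB stood at 83.5, 75.3 and 64.6, SNRPD2 at 74.3, 68.2 and 62.9, and SNRPC below both at 50.5, 44.5 and 38.8. SNRPB and SNRPD2 in Violet differed by less than 2 FPKM. Other genes cover 20.0% of the exonic bases of SNRPB and 3.4% of those of SNRPD2, so their order is uncertain. All levels and ranks by FPKM also depend on the annotated exonic length of each gene.

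Across genes, Spearman's rho between the FPKM in Bulk and the mean log2 ratio was -0.645 for 11 SRSF genes, -0.319 for 22 HNRNP genes and 0.018 for 11 SNRP genes. Both measures use the Bulk library, genes are not independent replicates, and these values are descriptions. With gene length, counted as annotated exonic bases, rho was 0.355, -0.333 and -0.145 in the same order. With transcript GC content rho was -0.164, -0.248 and 0.355. The median transcript GC content was 43.5% for SRSF, 44.2% for HNRNP and 44.5% for SNRP genes, against 49.1% for all genes tested.

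**Figure D4:**
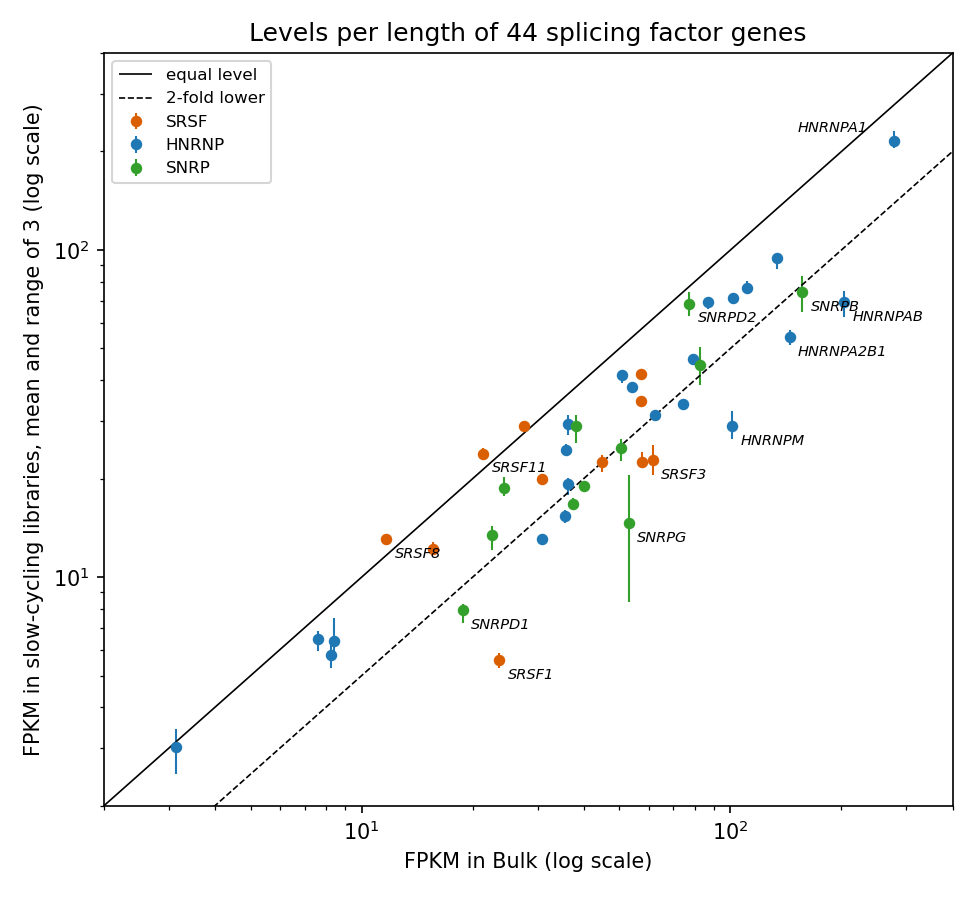
FPKM in Bulk (horizontal, log scale) against the mean FPKM of the 3 slow-cycling libraries (vertical, log scale) for 44 members, coloured by family; vertical bars span the lowest and highest of the 3 libraries, the solid line is an equal level and the dashed line a level 2-fold lower. HNRNPA1 and SNRPD2 lie near the line of equal level, and SRSF1, HNRNPM and SNRPG lie well under the dashed line.

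The slow-cycling libraries were then compared with each other, since the series concerns heterogeneity among dormant cells. Of 44 members 1 was called at 2-fold in any of the 3 pairs: SNRPG was lower in Claret than in Violet, where 0.569% of all genes were called lower and 0.213% higher. In Claret against eGFP 0.405% of all genes were lower and 0.309% higher, and in eGFP against Violet 0.651% were lower and 0.274% higher. At 1.5-fold SNRPG was also lower in Claret than in eGFP, where 0.905% of all genes were lower and 0.727% higher. No other member passed 1.5-fold in any pair. In Claret against Violet 1.27% of all genes were lower and 0.576% higher at this size, and in eGFP against Violet 1.52% and 0.679%. The range over the 3 slow-cycling log2 ratios was 1.30 for SNRPG, 0.42 for HNRNPA1L2 and at most 0.35 for the other members. Family medians for Claret against eGFP, Claret against Violet and eGFP against Violet were 0.03, -0.01 and -0.03 for SRSF, 0.11, 0.04 and -0.07 for HNRNP, and 0.12, 0.17 and 0.03 for SNRP. For SRSF, DESeq2 size factors turned the median of Claret against Violet to 0.02. In Claret against eGFP 20 of 22 HNRNP, 6 of 11 SRSF and 9 of 11 SNRP genes lay above 0, and 7372 of 14585 genes tested.

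Small differences passed the adjusted p of the exact binomial test without a threshold on size, which genes with many reads pass more readily. In Claret against eGFP, 9 members were higher and 1 lower, where 6.01% and 6.25% of all genes were. The 9 included HNRNPM (0.28), SRSF3 (0.29) and SNRPA (0.28). In Claret against Violet, 9 were higher and 2 lower, where 8.78% and 8.19% of all genes were, among them SNRPC (0.35), SNRPB (0.34) and HNRNPAB (0.23). In eGFP against Violet, 6 were higher and 10 lower, where 8.55% and 8.21% of all genes were, among them SNRPA1 (0.22), SNRPA (-0.25) and HNRNPU (-0.19). Without replicates, differences of this size cannot be set against the spread between cultures.

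SNRPG has many processed copies in the genome, and reads that match several genes may be split between them. The table lists 20 copies by name, of which 7 had reads, together 77 for Bulk, 166 for Claret, 109 for eGFP and 72 for Violet. The copies were thus highest in Claret, where SNRPG itself was lowest. With the copies added, the reads were 1557, 422, 537 and 661, and the log2 ratios to Bulk were -1.99 (-2.15 to -1.84), -1.55 (-1.69 to -1.41) and -1.23 (-1.37 to -1.10). Claret against Violet was then -0.76 (-0.94 to -0.58), where SNRPG alone gave -1.30 (-1.53 to -1.10), so the 2-fold call between these libraries was lost. Adding 76 named copies of HNRNPA1 left its ratios at -0.24, -0.35 and -0.39, and adding 9 of SNRPE gave -0.85, -0.96 and -1.10.

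Since many members were lower together, the sequence upstream of their start sites (RefSeq, GRCh38.p14) was searched for motifs on both strands. The search covered 250 bases for the 40 of 44 members with an entry, which leaves out SRSF2, SNRPD1, HNRNPA1 and HNRNPA1P48. Most of these windows overlap an exon of their own gene as annotated by GENCODE. The start site used lies 40242 bases from the GENCODE 5′ end in SRSF5, 24900 in HNRNPA1L2 and at most 783 (HNRNPA2B1) in the others. Upstream therefore refers to the RefSeq start site. The E-box CACGTG, bound by MYC with MAX and by USF proteins, was found upstream of 6 of 20 HNRNP genes (30%), of 0 of 10 SRSF and of 0 of 10 SNRP genes, and of 6.48% of all 27305 genes with a promoter. HNRNPH2 holds it at 2 places. GC content of the searched bases ranged from 47.6% in HNRNPH2 to 71.6% in HNRNPM for the 6 genes. The median over all promoters was 58%. Shares here and for the motifs below were not matched for GC content or expression. The windows around each match follow, 5′ to 3′ on the strand of the gene with the motif in capitals, because the motif was found in the HNRNP family and in neither of the others.
HNRNPA3 (chr2:177212711-177212740, plus strand): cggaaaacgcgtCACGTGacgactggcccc
HNRNPD (chr4:82374001-82374030, minus strand): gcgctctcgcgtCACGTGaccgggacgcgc
HNRNPDL (chr4:82430572-82430601, minus strand): ggagcccgagacCACGTGggcaggaaaagg
HNRNPH2, distal (chrX:101408168-101408197, plus strand): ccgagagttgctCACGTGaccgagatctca
HNRNPH2, proximal (chrX:101408201-101408230, plus strand): gacgtaggcgctCACGTGattactcgctta
HNRNPH3 (chr10:68331631-68331660, plus strand): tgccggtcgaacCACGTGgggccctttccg
HNRNPM (chr19:8444921-8444950, plus strand): gttgcgtcgggtCACGTGggcgcgcaggcg
The motif begins 127 bases before the start site in HNRNPDL, 71 in HNRNPA3, 50 in HNRNPH3, 42 in HNRNPM, 27 in HNRNPD, and 42 and 9 in HNRNPH2. In HNRNPA3, HNRNPD, HNRNPH3 and HNRNPM it lies inside the GENCODE span of the gene. The 6 genes with an E-box had a median of the mean log2 ratio of -0.74, from -1.78 for HNRNPM to -0.28 for HNRNPH2, and the 34 members without it a median of -0.64, from -2.05 to 0.20. The values of the 6 genes lay within the range of the 34. All 6 are HNRNP genes, while the 34 include the SRSF and SNRP genes, so this comparison does not separate motif from family.

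E2F motifs (TTTCGCGC, TTTGGCGC, TTTCCCGC or TTTGCCGC), named for the factors that drive S-phase genes, were found upstream of 1 of 10 SRSF, 3 of 20 HNRNP and 0 of 10 SNRP genes, and of 2.81% of all genes. The windows are shown in the same way, with matches to the reverse strand read as their complement.
SRSF10 (chr1:23980428-23980457, minus strand): ctggtgttctcGCGGGAAAgaaccgttgcg
HNRNPA3 (chr2:177212544-177212564, plus strand): cgGCGGCAAAggccctcttcc
HNRNPK (chr9:83980762-83980791, minus strand): ttcccgcccgaTTTGCCGCgcgctcgcgcc
HNRNPLL (chr2:38603084-38603113, minus strand): gcccggtcgacTTTCCCGCccctgccaata
The matches of SRSF10 and HNRNPLL lie inside the GENCODE span of the gene. The 4 genes with an E2F motif had a median of the mean log2 ratio of -0.53 and the 36 without the motif -0.71. The CCAAT box was found upstream of 14 of 20 HNRNP (70%), 2 of 10 SRSF and 4 of 10 SNRP genes, and of 33% of all genes. The ETS motif CCGGAAGT was found for 2 of 10 SRSF, 1 of 20 HNRNP and 3 of 10 SNRP genes, against 3.63% of all. The median of the mean log2 ratio was -0.50 for 20 genes with a CCAAT box and -0.71 for 20 without. For ETS it was -0.84 for 6 genes with the motif and -0.56 for 34 without. A relation of motifs to the ratios was not tested. The AP-1 motif (TGACTCA or TGAGTCA), to which the title of the series points, was found for none of the 40 and for 4.11% of all genes, and the NRF1 motif for none of the 40 and for 1.15%. Such matches describe letters in a window and do not show binding.

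Other parts of the splicing machinery were set beside the 3 families in 13 lists. The 17 genes of U1, U5 and U4/U6 specific proteins had a median of -0.68, -0.65 and -0.72 over Claret, eGFP and Violet, and the 17 of U2 and 3′ splice site proteins -0.62, -0.75 and -0.64. Called lower in all 3 were PPIH, a cyclophilin of the U4/U6 particle (-1.64, -1.45 and -1.502), PRPF4 (-1.09, -1.06 and -1.17), DDX46, the helicase that remodels U2 (-1.31, -1.46 and -1.40), and PHF5A of the SF3B complex (-1.11, -1.08 and -1.17). The 10 genes of the minor spliceosome, which removes a rare class of introns, had a median of -0.01, 0.02 and -0.15. The first 2 of these change sign with the scaling or the filter. SNRNP25 was the one minor spliceosome gene called lower in all 3, with 565 reads in Bulk and 188, 139 and 156 (-1.68, -2.02 and -1.84).

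Genes that build the Sm ring onto small nuclear RNA had a median of -0.51, -0.50 and -0.71 over 17 genes. WDR77, a partner of the methyltransferase that modifies Sm proteins, was lower (-1.25, -1.78 and -1.74), as was GEMIN4 (-1.20, -1.13 and -1.28). SMN1 had log2 ratios of -1.64, -1.47 and -2.81, but its copy SMN2 is nearly identical and the split of reads between them is uncertain. GEMIN8 was higher, with 77 reads in Bulk and 194, 167 and 179 (1.21, 1.09 and 1.20). The 10 LSM genes, relatives of the Sm genes, had a median of -0.46, -0.43 and -0.54, with LSM3 called lower (-1.19, -1.18 and -1.33).

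The 8 genes of SR protein kinases and import had a median of -0.20, -0.25 and -0.21, and none was called at 2-fold. The 22 SR-related proteins had a median of -0.35, -0.37 and -0.31, with TRA2A called lower in all 3 (-1.41, -1.501 and -1.39). The 7 HNRNP proteins under other symbols had -0.70, -0.69 and -0.71, with RBMX called lower (-1.15, -1.36 and -1.26). The 25 other splicing regulators had -0.48, -0.48 and -0.39. Among them ESRP1, an epithelial splicing regulator, was higher, from 12 reads in Bulk to 140, 116 and 115 (3.24, 3.07 and 3.07). The 4 epithelial markers listed summed to 586 CPM for Bulk, 603 for Claret, 575 for eGFP and 577 for Violet. In Bulk KRT8 gave 412 CPM of this sum and KRT18 171, so it says little about CDH1 and EPCAM. The Prp19 list of 17 genes had -0.22, -0.28 and -0.34, with PPIL1 called lower (-1.02, -1.07 and -1.03). The 8 spliceosomal helicases had -0.61, -0.54 and -0.52, with DDX39A (-1.74, -1.94 and -1.89) and DHX15 (-1.06, -1.16 and -1.04) called lower. The exon junction complex (5 genes) had -0.77 in each library, with MAGOHB called lower (-1.23, -1.31 and -1.55), and the 10 genes of nonsense-mediated decay -0.43, -0.43 and -0.34, with UPF3B called lower (-1.24, -1.30 and -1.495).

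**Figure D5:**
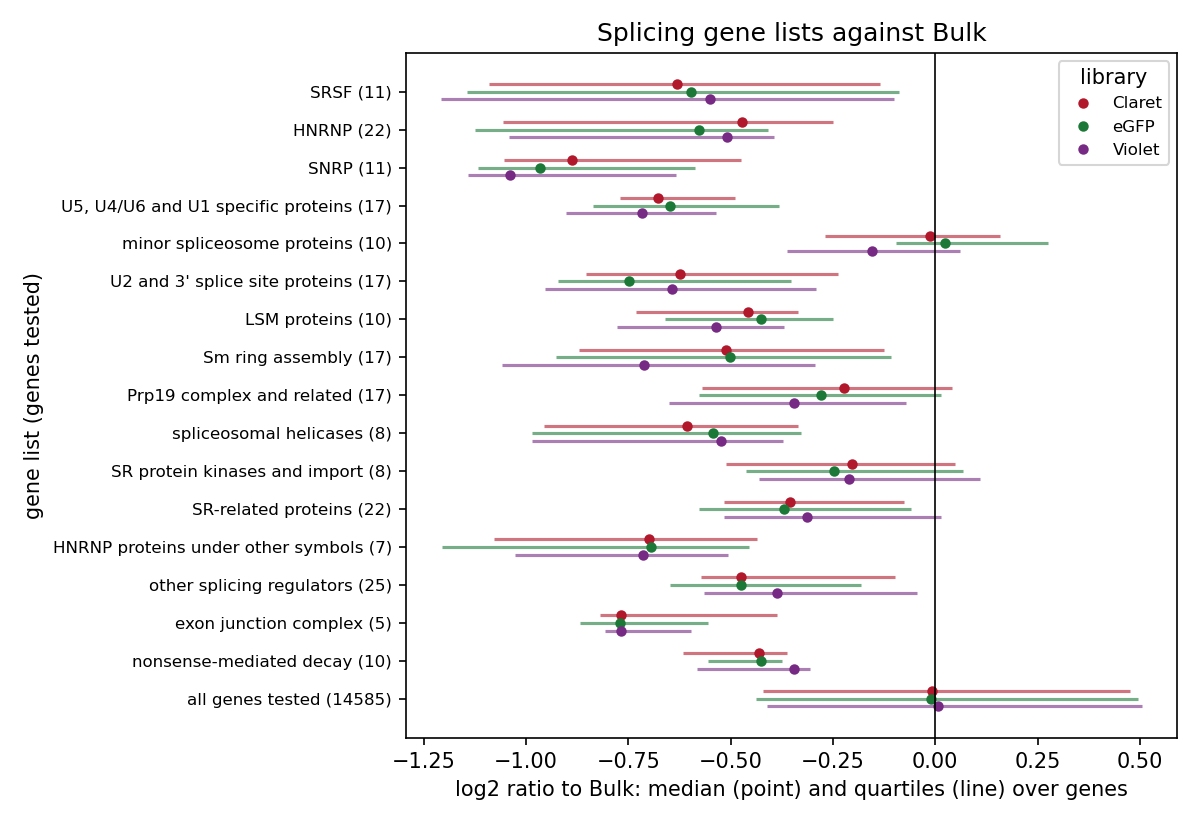
Median (point) and quartiles (line) of the log2 ratio to Bulk (horizontal axis, from CPM) over the genes of each family and list, by slow-cycling library, with the number of genes tested in brackets. The SNRP medians are the lowest shown, and the minor spliceosome medians lie between -0.15 and 0.02. The medians of all genes tested lie between -0.012 and 0.006.

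The 7 members under the filter had next to no reads. SRSF12 had 1 read each in Bulk, Claret and eGFP and 0 in Violet. SNRPN, the paralog of SNRPB expressed in brain from the paternal allele, had 1 read in Bulk and 0 elsewhere, and HNRNPCL1 had 1 read in Violet. HNRNPCL2, HNRNPCL3, HNRNPCL4 and the read-through gene HNRNPUL2-BSCL2 had 0 reads in all 4 libraries. A count of 0 allows up to 3 reads, or 0.177 to 0.191 CPM in these libraries. Other genes cover 100% of the exonic bases of HNRNPUL2-BSCL2. HNRNPCL2, HNRNPCL3 and HNRNPCL4 share 67.6%, 86.0% and 96.4% of their 31-base words with other genes. Reads that match several genes may not be counted for such rows, so the floor does not bound their expression.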

How the data were processed

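The authors deposited a table of read counts per gene with no normalization and a table of FPKM values, per the file headers. HISAT2 2.0.5 and featureCounts 1.5.0-p3 are named in the submitters' processing notes. Build, use of strand and treatment of reads matching several genes are not given in the sources used here. Start and end of all 58735 genes equal GENCODE 29 (GRCh38). FPKM imply library totals of 96.9% to 103.5% of the summed counts.

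CPM used TMM factors (edgeR 4.0.16, R 4.3.3), and log2 ratios a prior count of 2. With 1 library per group edgeR's quasi-likelihood test cannot be fitted, so the reads of library pairs were compared by an exact binomial test (two-sided, conditional on their sum), adjusted by Benjamini-Hochberg over the 14585 genes of at least 1 CPM on average. Intervals are exact (Clopper-Pearson, 95%) and, like the floor of 3 reads, cover counting error only. The test was checked on simulated counts. Protein sequences were not used here.

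Every member past the filter is named. Reads in all libraries are given for the 4 members of each family with the largest mean change, the 2 with the widest range between slow-cycling libraries and the one with the highest FPKM, and for others chosen after their values were seen. In the 13 lists, up to 3 genes a direction called in all 3 libraries are named, except 1 that is not reported here. Members and lists were chosen with earlier results of these data known. Alternatives were library-size and DESeq2 1.42.0 scaling, other filters, a prior count of 0.5, log2(FPKM + 1), GC correction, a 1.5-fold threshold and groups from the treatment field.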

Additional observations from a re-analysis of the deposited data

Results flagged for a closer look

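SNRPG differed between slow-cycling libraries. Its log2 ratio of Claret against Violet was -1.30 (95% interval -1.53 to -1.10), by the exact binomial test on the reads of these 2 libraries, which has no replicate check. With the reads of 20 named copies added, the ratio was -0.76. This sum holds the reads counted for SNRPG and for its named copies. Whether reads left uncounted or counted for other genes play a part in the remainder was not tested.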

How the results depend on the processing

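No paired analysis was possible because each group holds 1 library, and no library was left out for the same reason. No called member changed direction under any scaling, filter, prior count, FPKM or GC setting that used the titles.

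Groups from the treatment field changed the results most. The medians in Claret, eGFP and Violet became 0.55, -0.013 and -0.027 for SRSF, 0.51, 0.040 and -0.068 for HNRNP, and 1.04, 0.17 and 0.027 for SNRP. The number called lower became 0 for each family and library except 1 SNRP gene in eGFP, and 17 members were called higher in Claret. Swapping the labels so that Violet serves as Bulk has this effect by construction.

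The SRSF median in Claret and eGFP was -0.53 and -0.50 with no filter, -0.55 and -0.49 with GC correction, and -0.53 and -0.50 without members that share over 50% of their 31-base words. The last setting, and SNRP medians without SNRPG, were chosen after seeing the data. The HNRNP median in eGFP was -0.51 with GC correction. At 1.5-fold, 6 SRSF genes in Claret, 6 in eGFP, 10 HNRNP genes in eGFP, and 8 SNRP genes in Claret and 8 in eGFP were called lower. The U2 list had a median of -0.77 in Claret and -0.77 in Violet with GC correction and -0.62 in eGFP on log2(FPKM + 1). HNRNP proteins under other symbols had -0.81, -0.83 and -0.82 with GC correction.

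Of single members near 2-fold, DESeq2 size factors brought HNRNPD in eGFP (-1.01) and Violet (-1.02) and HNRNPU in eGFP (-1.02) past the threshold. GC correction took SNRPF in Claret (-0.99) below it, and library-size scaling SNRPD3 (-0.98) and SNRPC (-0.99) in Violet.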
